A study of Mus musculus with 88 samples.

Results

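The 4 opioid receptor genes Oprm1, Oprd1, Oprk1 and Oprl1 and the 2 peptide precursor genes Pnoc and Pomc were followed in the mouse nucleus accumbens. They were taken by name and make up 6 of the 55487 genes in the deposited count table. Each had a single row, and all 6 passed the filter on low counts. Penk and Pdyn, the other opioid peptide precursors, and Fosb are given beside them.

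The nucleus accumbens is a reward region in the ventral striatum. In C57BL/6 mice of both sexes it had been given a pair of herpes simplex vectors, of which one carried nuclease-dead Cas9 joined to CREB(S133D), an always active form of the transcription factor CREB. The other carried either a guide RNA to Fosb (the targeted groups) or a guide with no target (the control groups), and tissue was taken 6 days after surgery. D1-Cre mice with a Cre-dependent vector form the D1 arms and D2-Cre mice with such a vector the D2 arms, while D1-Cre mice with a vector that does not need Cre form the D1-D2 arms. Where the labels do not say that libraries came from separate animals, p-values measure only the spread between these samples, which may be technical. All groups, controls included, carried the dCas9-CREB(S133D) fusion and a Cre allele, and RNA came from dissected tissue and not from sorted cells. Cells without the vector are thus part of every value, and with bulk tissue fewer cells of a type and less RNA per cell cannot be told apart. Targeted and control groups had 6 and 8 libraries in female D1 mice, 7 and 4 in male D1 mice, 8 and 8 in female D2 mice, 7 and 8 in male D2 mice, 12 and 8 in female D1-D2 mice and 4 and 7 in male D1-D2 mice. The labels put 78 of these 87 libraries in sequencing batch 1 and 9 in batch 2, and batch 2 held male D2 libraries only (3 targeted and 6 control, against 4 targeted and 2 control in batch 1).

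Opioid receptors are G protein-coupled receptors that act through inhibitory G proteins, lower cyclic AMP, open inwardly rectifying potassium channels and close calcium channels. Endorphins and enkephalins act at the mu receptor, the main target of morphine, enkephalins at the delta receptor and dynorphins at the kappa receptor, while nociceptin acts at its own receptor and not at the other members. In the striatum the mu receptor is enriched in patches called striosomes, D2-type medium spiny neurons make enkephalin from Penk, and D1-type medium spiny neurons make dynorphin from Pdyn.

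On mm10 (GENCODE M21) the mu receptor gene Oprm1 (ENSMUSG00000000766) lies at chr10:6758506-7038198 on the plus strand and has 8037 bases of exon in a span of 279693 bases. The delta receptor gene Oprd1 (ENSMUSG00000050511) is at chr4:132110726-132144486 on the minus strand, with 4021 exon bases. The kappa receptor gene Oprk1 (ENSMUSG00000025905) is at chr1:5588466-5606131 on the plus strand, with 9151 exon bases. The nociceptin receptor gene Oprl1 (ENSMUSG00000027584) is at chr2:181715016-181720985 on the plus strand, with 3753 exon bases. Pnoc (ENSMUSG00000045731), the nociceptin precursor, is at chr14:65400673-65425472 on the minus strand, with 2157 exon bases. Pomc (ENSMUSG00000020660), the precursor of beta-endorphin, corticotropin and melanocortins, is at chr12:3954951-3960642 on the plus strand, with 1318 exon bases. Only Oprm1 of the 6 overlaps annotated genes, Gm10945 and Ipcef1, both on the opposite strand, and Ipcef1 shares 96 of its exon bases. No source used here gives the strand setting of the counting, so reads from those 96 bases cannot be assigned to 1 of the 2 genes for certain.

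Promoter sequences show what lies upstream of the genes whose counts differ most below, Oprm1, Oprd1 and Pomc. RefSeq (GRCm38.p6) gave 8 windows for 4 members. Oprk1 and Pnoc had none. Each sequence is the 250 bases before the annotated start, read 5′ to 3′ on the gene's strand, and the capitals mark a TATA motif (TATAAA) on that strand.
Pomc, chr12:3954695-3954944, plus strand: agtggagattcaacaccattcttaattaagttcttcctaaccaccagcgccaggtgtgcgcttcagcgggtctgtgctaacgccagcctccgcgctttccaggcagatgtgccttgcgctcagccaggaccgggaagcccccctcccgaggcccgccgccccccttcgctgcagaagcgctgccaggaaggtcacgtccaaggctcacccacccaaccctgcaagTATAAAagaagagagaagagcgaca
Oprd1, chr4:132144487-132144736, minus strand: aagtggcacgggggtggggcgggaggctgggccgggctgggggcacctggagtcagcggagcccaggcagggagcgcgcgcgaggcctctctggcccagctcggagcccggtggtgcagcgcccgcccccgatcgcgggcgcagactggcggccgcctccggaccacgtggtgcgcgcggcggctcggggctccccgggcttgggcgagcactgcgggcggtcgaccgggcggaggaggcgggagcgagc
Oprm1, 1 of 3 starts, chr10:6788320-6788569, plus strand: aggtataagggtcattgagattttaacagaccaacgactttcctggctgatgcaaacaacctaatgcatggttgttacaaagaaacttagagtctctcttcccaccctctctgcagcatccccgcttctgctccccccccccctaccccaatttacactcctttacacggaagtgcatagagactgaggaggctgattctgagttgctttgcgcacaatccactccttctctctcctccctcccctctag
The Pomc window was the only 1 of these 3 with TATAAA on its own strand, a motif found on either strand in 12.4% of all 32841 windows of this length. The Oprd1 window was 80% G and C, against a median of 52.4% over all windows, and the Pomc and Oprm1 windows were 60% and 50%. Neither the AP-1 motif TGANTCA, the site type that FosB dimers bind, nor the CRE motif TGACGTCA, the site type that CREB binds, was found on either strand in the 8 windows. Over all windows, 6.75% held the first and 1.55% the second.

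Total counts ran from 12430387 to 69568367 per library. In 4 libraries, all with the Fosb guide, 10 genes held over 90% of the counts, and there Pomc had 0 counts and Pnoc 1 count in each. Fosb itself did not pass the test in any arm (adjusted p = 0.7 in male D1 mice and 1 in the other arms, edgeR). Its log2 fold change of targeted over control was 0.41 (SE 0.23) in female D1 and −0.30 (SE 0.25) in male D2 mice. Within male D2 batches it was −0.62 (SE 0.16) in batch 2 and 0.17 (SE 0.36) in batch 1. The D1 effect on Fosb minus the D2 effect was 0.78 (SE 0.25) and did not pass either. Markers of D1 and D2 medium spiny neurons were present in all libraries (summed levels of 133 to 939.8 CPM and 66.8 to 523 CPM). Y-linked Ddx3y was above 5 CPM in 4 of the 50 libraries labelled female (17376, 19749, 19598 and 19762), at 41.2, 37.1, 8.87 and 6.64 CPM, against medians of 0.151 CPM over all female-labelled and 87.8 CPM over the 37 male-labelled libraries. The 4 belong to the female D1 targeted group (17376), the female D1-D2 targeted group (19749) and the female D1-D2 control group (19598 and 19762), and all tests were also fitted without them, which changed no call of a member.

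Counts were scaled by TMM and are given as CPM (counts scaled to a common library size), as mean ± SD over the libraries of a group. For differences between guides, sexes or arms, edgeR's quasi-likelihood test was fitted to all 87 libraries with sequencing batch in the model, and adjusted p-values are Benjamini-Hochberg values over the 25420 genes tested, with 0.05 as the threshold.

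Oprm1, the mu receptor gene, had nearly the same level in 10 of the 12 groups and a much higher one in male D2 mice. In female D1 mice it averaged 13.4 ± 1.43 CPM with the Fosb guide and 12.6 ± 3.13 CPM with the control guide. In male D1 mice it averaged 11.2 ± 0.63 CPM with the Fosb guide and 12.7 ± 2.87 CPM with the control guide. Its 7 libraries in male D1 targeted mice lay within 9.99 and 11.8 CPM, the narrowest spread of the 12 groups. Female D2 mice had 11.4 ± 2.72 CPM with the Fosb guide and 12 ± 1.62 CPM with the control guide. In the 2 D1-D2 arms the means were similar, with 11.8 ± 3.13 CPM with the Fosb guide and 12.8 ± 2.11 CPM with the control guide in females and 13.5 ± 4.33 CPM with the Fosb guide and 12.4 ± 2.5 CPM with the control guide in males. Male D2 mice had 39.6 ± 34.9 CPM with the Fosb guide and 53.1 ± 27 CPM with the control guide. These SDs span both batches, which are described apart below. From highest to lowest mean the order began with male D2 control, male D2 targeted and male D1-D2 targeted and ended with female D2 targeted and male D1 targeted, and no neighbours in this order were apart by more than both SDs. Over the 78 libraries of batch 1 alone, Oprm1 averaged 12.3 ± 2.44 CPM and the 12 group means ran from 11.2 to 13.5 CPM.

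Oprd1, the delta receptor gene, varied more than Oprm1 between the groups of batch 1, with group means there of 4.25 to 9.37 CPM. It averaged 9.11 ± 1.99 CPM with the Fosb guide and 8.53 ± 3.59 CPM with the control guide in female D1 mice. In male D1 mice it averaged 6.14 ± 1.88 CPM with the Fosb guide and 4.25 ± 0.838 CPM with the control guide, the lowest control group. Female D2 mice had 5.87 ± 1.83 CPM with the Fosb guide and 7.71 ± 2.27 CPM with the control guide. Male D2 mice, with both batches, had 10.9 ± 6.76 CPM with the Fosb guide and 15.5 ± 7.21 CPM with the control guide. In female D1-D2 mice the levels were 8.82 ± 3.57 CPM with the Fosb guide and 9.37 ± 2.39 CPM with the control guide. In male D1-D2 mice they were 9.12 ± 2.55 CPM with the Fosb guide and 7.76 ± 3.59 CPM with the control guide. Single libraries of batch 1 ran from 2.05 CPM (female D2 targeted, 2 counts) to 16.9 CPM (female D1 control 19755). No neighbours in the order of group means were apart by more than both SDs, although the highest, male D2 control, lay well above the lowest, male D1 control.

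Oprk1, the kappa receptor gene, had group means between 26.8 CPM (female D2 targeted) and 40.8 CPM (female D1-D2 control). Female D1 mice had 32.6 ± 6.97 CPM with the Fosb guide and 33.1 ± 11.2 CPM with the control guide. In male D1 mice it was 30.9 ± 8.16 CPM with the Fosb guide and 29.3 ± 7.63 CPM with the control guide. Female D2 mice had 26.8 ± 5.79 CPM with the Fosb guide and 28.3 ± 6.5 CPM with the control guide, and male D2 mice 29.9 ± 7.69 CPM with the Fosb guide and 32.2 ± 11.1 CPM with the control guide. The D1-D2 arms had the widest spread, with 33.7 ± 13.8 CPM with the Fosb guide and 40.8 ± 18.5 CPM with the control guide in females. Male D1-D2 mice had 28.9 ± 12.2 CPM with the Fosb guide and 29.1 ± 11.4 CPM with the control guide. Within female D1-D2 control mice alone the libraries ran from 16.7 to 61.5 CPM, which is wider than the distance between any 2 group means. No neighbours in the order of groups were apart by more than both SDs.

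Oprl1, the nociceptin receptor gene, had the highest mean CPM of the 4 receptors in batch 1. Female D1 mice had 33.5 ± 7.48 CPM with the Fosb guide and 42.3 ± 14.9 CPM with the control guide. Male D1 mice had 32 ± 5.9 CPM with the Fosb guide and 33.7 ± 9.11 CPM with the control guide. In D2 mice the levels were 39.2 ± 9.04 CPM with the Fosb guide and 36 ± 8.49 CPM with the control guide for females and 29.8 ± 6.46 CPM with the Fosb guide and 24.9 ± 6.09 CPM with the control guide for males. The male D2 values pool both batches. In the same order of guides they were 33.05 and 30.62 CPM in batch 1 and 25.44 and 23.04 CPM in batch 2. Female D1-D2 mice had 36.6 ± 11.2 CPM with the Fosb guide and 36.9 ± 9.52 CPM with the control guide. In male D1-D2 mice the values were 36 ± 13.3 CPM with the Fosb guide and 42.2 ± 19.7 CPM with the control guide. Female D1 control was the highest group and male D2 control the lowest, and again no neighbours were apart by more than both SDs.

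Pnoc, the nociceptin precursor gene, was low, with a median of 48 counts per library, and uneven within groups. Female D1 mice had 1.52 ± 0.528 CPM with the Fosb guide and 2.79 ± 2.68 CPM with the control guide. Male D1 mice had 1.16 ± 0.52 CPM with the Fosb guide and 1.34 ± 0.749 CPM with the control guide. In D2 mice it was 2.31 ± 1.52 CPM with the Fosb guide and 1.6 ± 1.3 CPM with the control guide for females and 1.5 ± 0.627 CPM with the Fosb guide and 1.5 ± 0.715 CPM with the control guide for males. Among D1-D2 mice, females had 2.52 ± 2.59 CPM with the Fosb guide and 1.56 ± 1.2 CPM with the control guide and males 0.841 ± 0.144 CPM with the Fosb guide and 2.6 ± 3.13 CPM with the control guide. The high means rest on single libraries. Pnoc reached 9.36 CPM in library 19511 (male D1-D2 control), 8.81 CPM in 16585 (female D1 control), and 8.61 and 7.22 CPM in 19604 and 19748 (female D1-D2 targeted), against a median of 1.38 CPM over all libraries.

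Pomc was the lowest of the members on the CPM scale in batch 1, with a median of 42 counts per library over all 87. In D1 mice it averaged 2.8 ± 4.33 CPM with the Fosb guide and 1.22 ± 0.504 CPM with the control guide in females and 1.54 ± 0.324 CPM with the Fosb guide and 1.31 ± 0.156 CPM with the control guide in males. In D2 mice it averaged 0.877 ± 0.59 CPM with the Fosb guide and 1.22 ± 0.29 CPM with the control guide in females and 0.982 ± 0.444 CPM with the Fosb guide and 0.806 ± 0.422 CPM with the control guide in males. The male D2 values pool both batches. In the same order of guides they were 1.31 and 1.32 CPM in batch 1 and 0.546 and 0.635 CPM in batch 2. In D1-D2 mice it averaged 1.09 ± 0.454 CPM with the Fosb guide and 1.06 ± 0.353 CPM with the control guide in females and 0.74 ± 0.529 CPM with the Fosb guide and 1.3 ± 0.28 CPM with the control guide in males. The female D1 targeted mean is set by library 16564 at 11.6 CPM (445 counts), with the other 5 between 0.651 and 1.69 CPM. The 4 libraries in which 10 genes held over 90% of the counts had 0 counts of Pomc, which at 3 counts allows up to 2.74 to 4.82 CPM there, so a level like that of the other libraries could not have been detected. Such limits cover counting error only. The group means above count those 4 libraries as 0 CPM. Without them Pomc averaged 1.17 ± 0.278 CPM in female D2 and 1.19 ± 0.309 CPM in female D1-D2 targeted mice. The male D1-D2 targeted mean was then 0.987 ± 0.234 CPM.

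**Figure D1:**
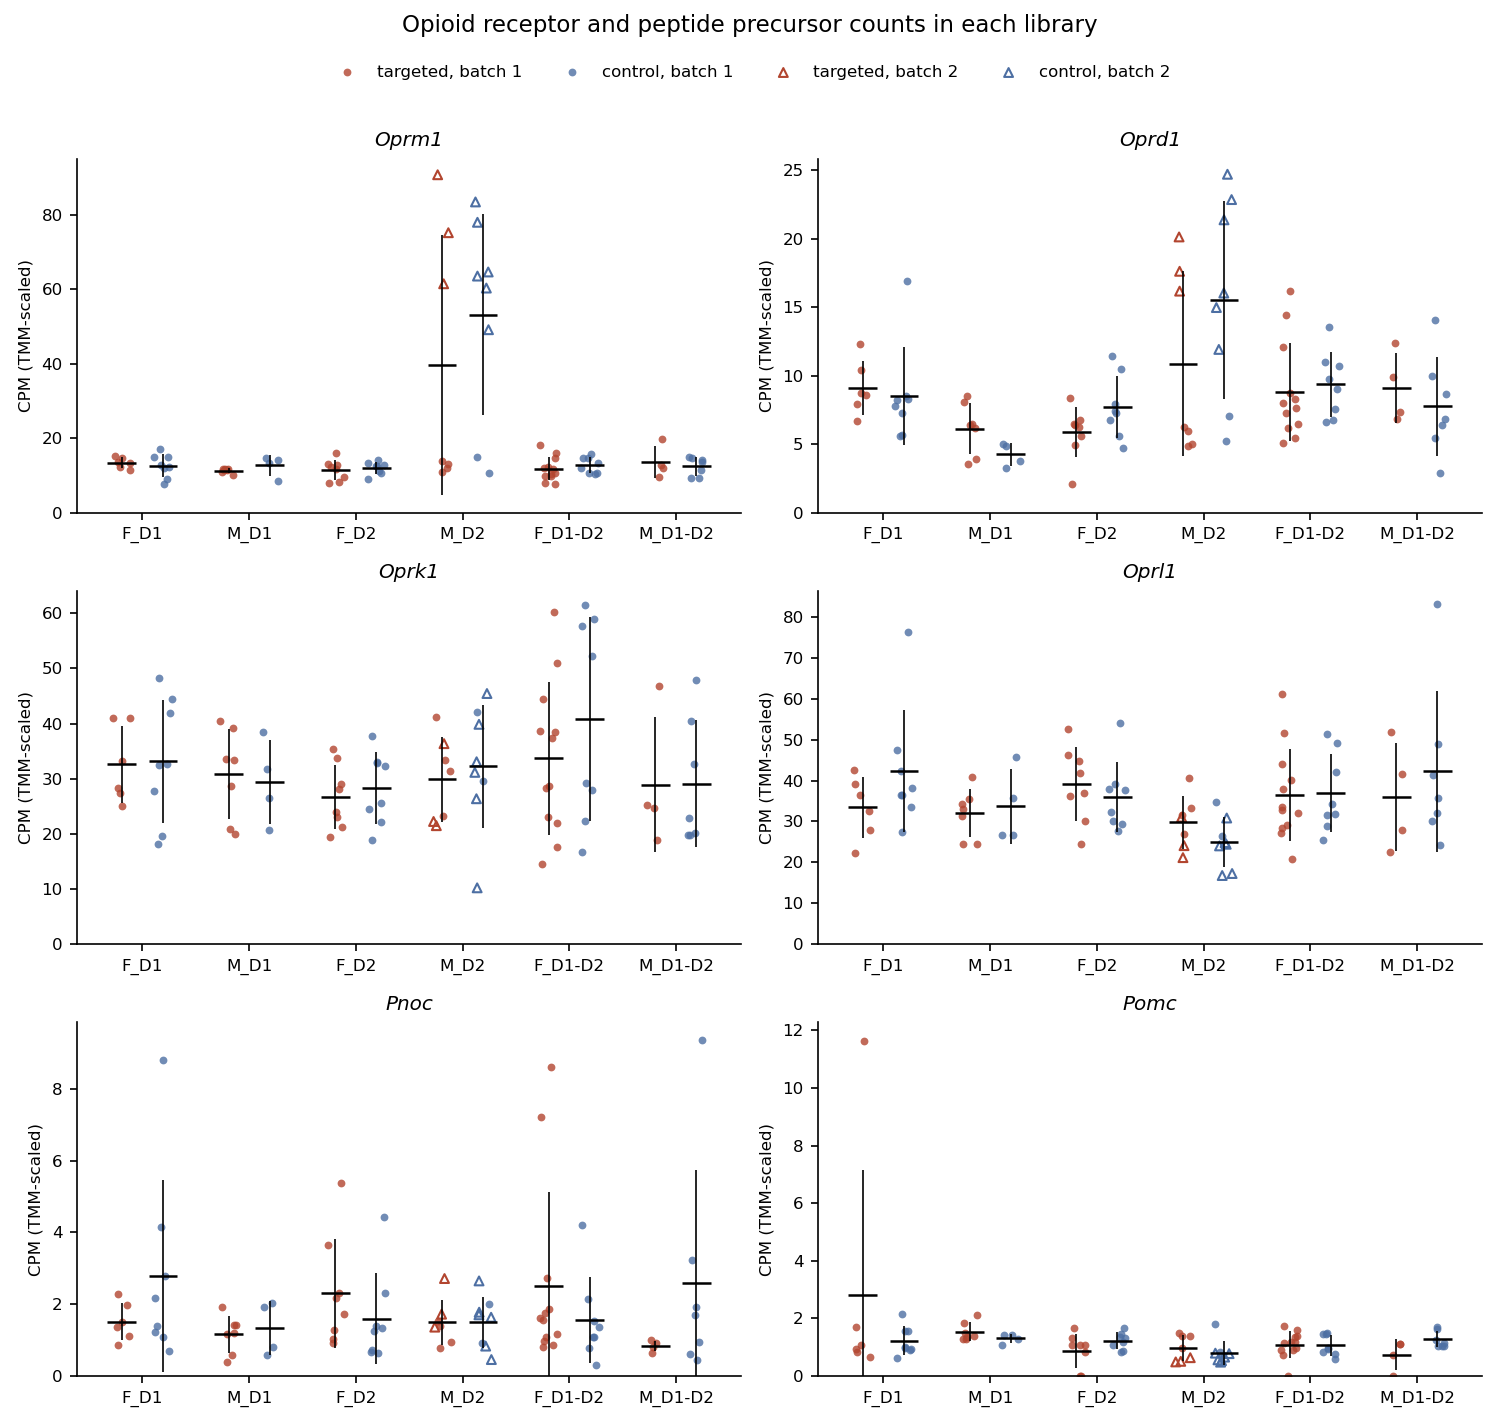
TMM-scaled CPM (vertical axis) of each library for the 6 genes, with the 6 arms along the horizontal axis, targeted left of control, triangles for batch 2, a bar at the mean and a line of 1 SD to each side. Oprm1 sits between 7.64 and 19.7 CPM in all batch 1 libraries and between 49.1 and 90.8 CPM in batch 2, and Pnoc and Pomc show single high libraries.

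Per kilobase of exon the nociceptin receptor was the most abundant of the 4 receptors in the 10 groups outside male D2 mice. In male D2 mice the order differed by batch. In batch 2 Oprm1 was above Oprl1, at 9.43 ± 1.82 against 6.78 ± 1.35 CPM per kb in targeted mice and at 8.27 ± 1.54 against 6.14 ± 1.41 in controls. Over batch 1, Oprl1 had 9.79 ± 2.92 CPM per kb, against 3.48 ± 1.2 for Oprk1, 1.91 ± 0.723 for Oprd1 and 1.53 ± 0.303 for Oprm1 (SD, n = 78 libraries). The precursor of its ligand, Pnoc, was at 0.88 ± 0.846 and Pomc at 0.98 ± 0.956 CPM per kb. The other precursors were far higher, with 372 ± 114 CPM per kb for Penk, the enkephalin precursor, and 60.6 ± 18.9 for Pdyn, the dynorphin precursor. RNA for receptors on incoming nerve endings is made in other regions and is not in these values.

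**Figure D2:**
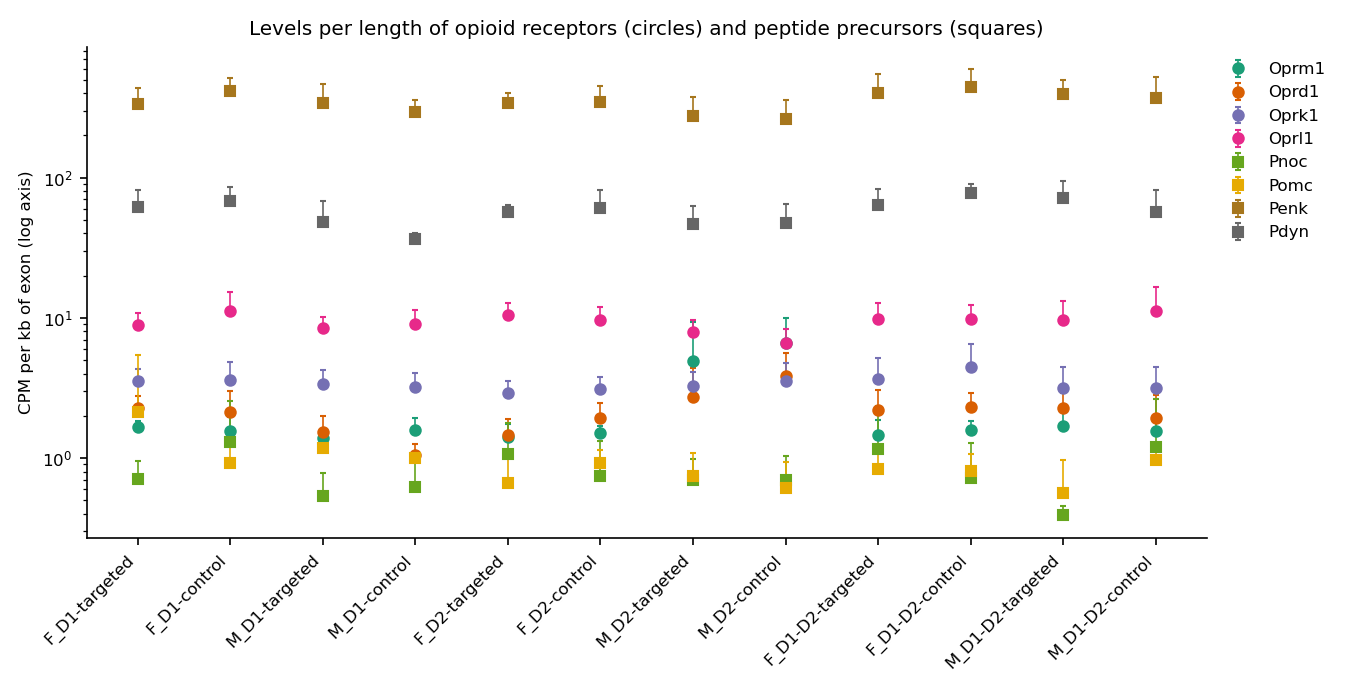
Mean CPM per kb of exon (log axis) in the 12 groups, targeted left of control, for receptors (circles) and precursors (squares), with a bar of 1 SD drawn upwards only (F, female; M, male). Penk and Pdyn lie above all receptors in each group, and the mean of Oprl1 is the highest of the receptors in each. In male D2 control it is only just above Oprm1 (6.644 against 6.605), and the 2 male D2 groups pool batches that differ in this order.

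The guide comparisons ask whether these genes differ when the CREB fusion is directed to Fosb. None of the 6 passed the threshold in any of the 6 arms. The share of all 25420 genes that passed was 0.00393% in female D1 mice, 0% in male D1 mice, 0% in female D2 mice, 0.0629% in male D2 mice, 0% in female D1-D2 mice and 0.00393% in male D1-D2 mice, so 0 of 6 members is near the background. At an unadjusted p under 0.05 there were 1139, 1807, 421, 553, 864 and 818 genes in the same order of arms, and 2 of the 6 members, Pomc in female D1 and Pnoc in male D1-D2 mice.

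Oprm1 had the narrowest intervals. Its level with the Fosb guide was 0.781- to 1.12-fold of that with the control guide in female D1-D2 mice (95% confidence interval), the arm with most libraries, and 0.866- to 1.32-fold in male D2 mice with batch in the model. Within male D2 batches its log2 fold changes were 0.18 (SE 0.17) in batch 2 and −0.07 (SE 0.19) in batch 1. A 2-fold change in either direction lies outside the interval of Oprm1 in all 6 arms.

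Oprd1 values were 3.53, 3.9, 6.16, 6.39, 6.44, 8.05 and 8.5 CPM in male D1 targeted mice, against 3.29, 3.8, 4.88 and 5.01 CPM in male D1 controls. The 5 highest libraries were all targeted, but the groups overlapped. The difference did not pass (log2 fold change 0.53, SE 0.28, unadjusted p = 0.062, adjusted p = 0.69, edgeR). In female D1 mice the same contrast was 0.08 (SE 0.23), in female D2 mice −0.32 (SE 0.23) and in male D2 mice −0.09 (SE 0.23).

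Oprk1 and Oprl1 differed between guides by less than 2 SE in every arm. The log2 fold changes of Oprk1 ran from −0.29 (SE 0.23, female D1-D2) to 0.07 (SE 0.31, male D1). Those of Oprl1 ran from −0.34 (SE 0.21, female D1) to 0.15 (SE 0.19, female D2).

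Pomc in female D1 mice came closest to the threshold of all members, through 1 library. It was 0.651, 0.846, 0.925, 1.09, 1.69 and 11.6 CPM in targeted mice, against 0.629, 0.894, 0.933, 0.976, 1.01, 1.55, 1.58 and 2.17 CPM in controls. All but the highest targeted library lay within the range of the controls. The fitted difference did not pass (log2 fold change 1.3, SE 0.33, unadjusted p = 1.8e-04, adjusted p = 0.56, edgeR), and without library 16564 the log2 fold change was −0.13 (SE 0.25). That library was also the highest of all 87 in the pituitary hormone genes Prl, with 29.8 CPM against a median of 0 elsewhere, and Gh, with 9.14 CPM against 0. Library 16761 (female D1-D2 targeted), the next highest in Prl at 18.1 CPM, had 1.58 CPM of Pomc. Of the 9 pituitary genes listed, Fshb and Pitx1 had 0 counts in library 16564, and the summed list ran from 0 to 39.8 CPM over all libraries. The part of pituitary transcripts in the Pomc value was not tested.

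Pnoc had the widest intervals. In male D1-D2 mice it was 0.653, 0.814, 0.907 and 0.99 CPM in targeted mice, against 0.447, 0.615, 0.941, 1.69, 1.93, 3.22 and 9.36 CPM in controls. The targeted libraries all lay inside the range of the controls, which reaches higher. The difference did not pass (log2 fold change −1.70, SE 0.72, unadjusted p = 0.021, adjusted p = 1, edgeR) and was −0.89 (SE 0.68, unadjusted p = 0.19, adjusted p = 1) without control library 19511. In female D1-D2 mice the sign was the opposite (log2 fold change 0.74, SE 0.46, unadjusted p = 0.11, adjusted p = 1, edgeR), with both of the highest libraries in the targeted group.

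**Figure D3:**
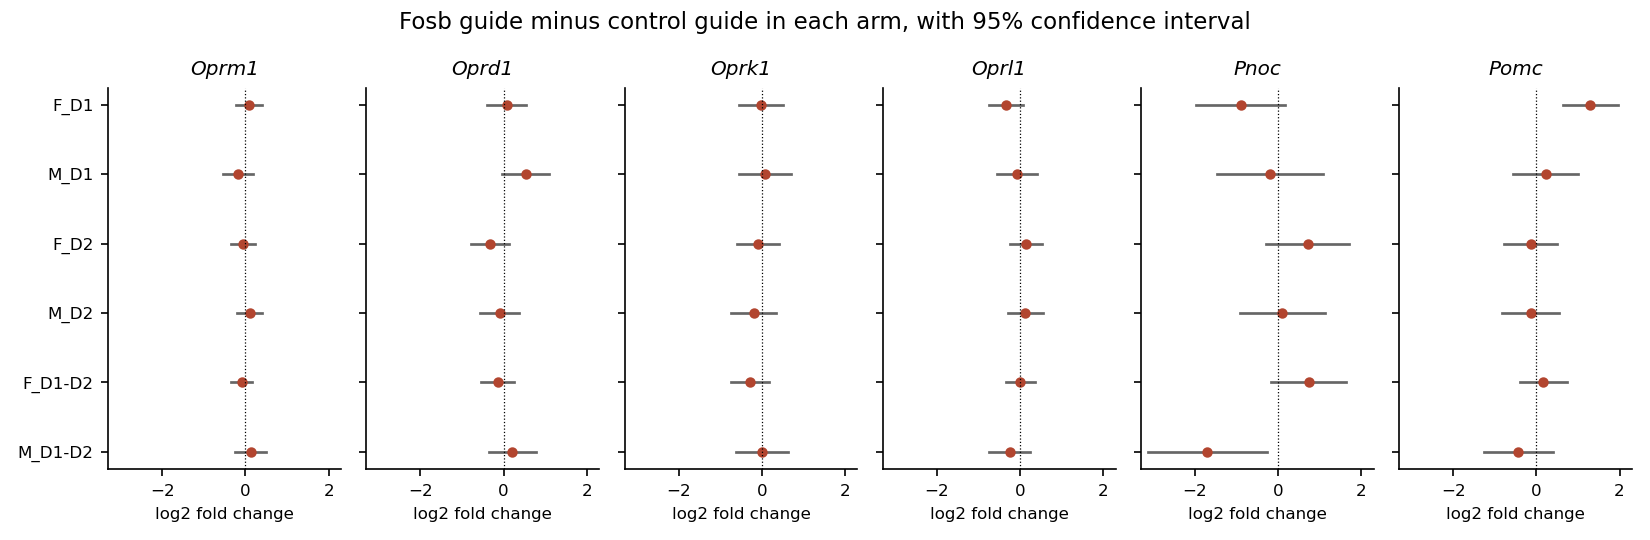
Log2 fold change of targeted over control (horizontal axis) in each arm (rows) for the 6 genes, with lines for the 95% confidence interval. The intervals of the 4 receptors all include 0, and those that do not are Pomc in female D1 mice and Pnoc in male D1-D2 mice, neither of which passed after adjustment.

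The mean over the 6 arms also gave no call among the members, with 0% of all genes called. These means ran from −0.21 (SE 0.23, Pnoc) to 0.16 (SE 0.14, Pomc), and that of Oprm1 had a 95% interval of 0.914- to 1.09-fold. No member passed the test of a difference in guide effect between D1 and D2 arms (0.00393% of genes called). There Oprd1 stood at 0.51 (SE 0.24, unadjusted p = 0.039, adjusted p = 1, edgeR) and Pomc at 0.90, or 0.19 without library 16564. Nor did any pass the same test between the sexes (0% of genes called). The smallest adjusted p there was 0.74, for Pomc.

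Control groups were compared with each other to see how the genes differ by sex and arm when no guide is directed to Fosb. Oprd1 was the only member called by edgeR. It was higher in female than in male controls over the 3 arms (log2 fold change 0.55, SE 0.15, adjusted p = 0.0046, edgeR), a 1.47-fold difference with a 95% interval of 1.19- to 1.81-fold. That comparison called 28.6% of all genes, with 15.3% of all genes higher in females, so 1 of 6 members is near the background. With no batch term the Oprd1 difference was 0.092 (adjusted p = 0.75) and not called. Pdyn was higher as well (log2 fold change 0.51, SE 0.18, adjusted p = 0.023, edgeR), while Penk was not called (log2 fold change 0.24, SE 0.17, adjusted p = 0.3, edgeR).

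The difference was also called in the D1 arms alone. Female D1 controls had 5.59, 5.64, 7.29, 7.78, 8.2, 8.28, 8.55 and 16.9 CPM, against 3.29, 3.8, 4.88 and 5.01 CPM in male D1 controls. The groups did not overlap, and all libraries were of batch 1. The log2 fold change was 1.02 (SE 0.28, adjusted p = 0.0071, edgeR), where 22.4% of all genes were called and 12.6% as higher in females. In the D1-D2 arms it was 0.27 (SE 0.22, adjusted p = 0.8, edgeR), with 0.0629% of genes called. The difference between these sex differences was itself not called (log2 fold change 0.75, SE 0.35, adjusted p = 0.34, edgeR, with 0% of genes called). Under limma-voom 4539 genes were called there, and Oprd1 was called in 0 of 13 alternatives.

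Marker levels stand beside this difference as measured. Summed levels in female and male D1 controls were 42.7 to 73.7 and 19 to 31.8 CPM for 5 cholinergic interneuron genes, which did not overlap, and none of the 5 was at 0 in a group. For the 4 measured of 5 D2 medium spiny neuron genes they were 176 to 424 and 152 to 218 CPM, for 4 striosome genes 129 to 250.3 and 86.8 to 139.7 CPM and for 5 D1 genes 448 to 900.3 and 475 to 635 CPM. For 4 astrocyte genes they were 834 to 1721 and 529 to 987 CPM, and for 7 choroid plexus genes, which did not overlap, 17.6 to 55 and 13.8 to 15.5 CPM. The part of these cells in the Oprd1 difference was not tested. With DESeq2 size factors the median of all genes shifted by −0.118 log2 in this comparison, and Oprd1 was still called.

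The male D1 control group has 4 libraries and also enters the arm comparison in males. Male D1-D2 controls had 2.92, 5.44, 6.37, 6.85, 8.67, 9.96 and 14.1 CPM of Oprd1, overlapping with the male D1 controls given above only through library 19511. Summed cholinergic markers were 24.3 to 65.7 CPM in male D1-D2 controls and 19 to 31.8 CPM in male D1 controls, and their part was not tested. The difference passed (log2 fold change 0.87, SE 0.28, adjusted p = 0.038, edgeR) in a comparison that called 10.1% of all genes and 7.53% as higher. It was lost with DESeq2 size factors, with no low-count filter, with no batch term, in batch 1 alone, without any of 3 of the 4 male D1 control libraries (17789, 18068 and 18069) and without any of 3 of the 7 male D1-D2 control libraries (19107, 19109 and 19512), with adjusted p-values of 0.051 to 0.16. No member was called between female D1-D2 and D1 controls (0.00393% of genes), between female D2 and D1 controls (0.0197%) or between male D2 and D1 controls (0%). In the last, batch had to be in the model. Without it Oprm1 and Oprd1 would have differed by 2.07 and 1.87, which is the batch difference described next.

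Between sequencing batches of male D2 mice 3 members were called, Oprm1 and Oprd1 as higher and Pomc as lower in batch 2. Oprm1 was 61.5, 75.2 and 90.8 CPM in targeted and 49.1, 60.3, 63.5, 64.6, 78 and 83.5 CPM in control mice of batch 2, against 11, 12, 13.1 and 13.9 CPM in targeted and 10.8 and 14.9 CPM in control mice of batch 1. The batches did not overlap, and within a batch the guides did. Averaged over guides, Oprm1 was 69.6 ± 13.1 CPM in the 9 libraries of batch 2 and 12.6 ± 1.65 CPM in the 6 of batch 1, a 5.63-fold difference with a 95% interval of 4.45- to 7.12-fold (log2 fold change 2.49, SE 0.17, adjusted p = 2.4e-22, edgeR).

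Marker levels also moved with the batches. The mean log2 CPM of the cortical glutamatergic genes was 0.21 to 5.17 in batch 2 and −0.67 to 3.81 in batch 1, with library 2755 lowest in batch 2 and 18386 highest in batch 1. For the GABAergic interneuron genes it was 2.69 to 4.50 in batch 2 and 2.36 to 3.61 in batch 1, and for the astrocyte genes 6.73 to 7.49 in batch 2 and 6.45 to 8.22 in batch 1. The ranges overlapped for these 3 lists. For the striosome genes the value was 4.636 to 5.262 in batch 2 and 4.449 to 4.765 in batch 1, overlapping only through library 3631. For the D2 medium spiny neuron genes it was 3.81 to 6.01 in batch 2 and 4.96 to 5.48 in batch 1. The D1 genes were at 3.97 to 5.93 and 5.89 to 6.25. The hypothalamic genes did not overlap, at −1.70 to −1.31 and −3.05 to −2.15. That list includes Agrp, which had a log2 batch difference of 6.10 and whose counts are uncertain, as described below. The highest library of Agrp was 3631 of batch 2. Those of Hcrt, Pmch, Oxt, Avp, Kiss1 and Ghrh, also in the list, were all of batch 1. Library 2755, with a cortical value of 0.21, had 49.1 CPM of Oprm1, and library 18386, with 3.81, had 14.9 CPM. With the cortical marker value as a covariate the log2 difference was 2.48 for Oprm1, 1.5 for Oprd1 and −1.04 for Pomc, all called. The covariate is a mean of marker genes and does not measure the share of cortical tissue. The part of cortical tissue, interneurons, astrocytes, medium spiny neurons, striosomes and hypothalamic transcripts was not tested.

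Oprd1 showed the same direction. It was 11.9 to 24.7 CPM in batch 2 (median 17.6), against 4.9 to 7.04 CPM in batch 1 (median 5.61), again without overlap (log2 fold change 1.65, SE 0.25, adjusted p = 2.5e-08, edgeR). Pomc went the other way, with 0.483 to 0.794 CPM in batch 2, against 0.844 to 1.8 CPM in batch 1, and no overlap (log2 fold change −1.17, SE 0.34, adjusted p = 0.0022, edgeR). So 2 members were called higher and 1 lower in batch 2, in a comparison that called 62.3% of all genes, 32.6% as higher and 29.7% as lower. That count is near the background, although the size for Oprm1 was not common, since 5.62% of all genes had a higher log2 value. For Oprd1 this share was 10.5%.

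The other 3 members were not called. Oprk1 was 29.6 ± 10.7 CPM in batch 2 and 33.5 ± 7.18 CPM in batch 1, with a 95% interval of 0.578- to 1.23-fold. Oprl1 was 23.8 ± 5.03 CPM in batch 2 and 32.2 ± 5.32 CPM in batch 1 (adjusted p = 0.097, edgeR), and it was called lower in 3 of 12 alternatives (limma-voom, the cortical marker covariate and the male D2 arm fitted alone; adjusted p of 0.013 to 0.24 over the 12). Pnoc was 1.65 ± 0.735 CPM in batch 2 and 1.3 ± 0.465 CPM in batch 1. Of the other precursors Penk fell (log2 fold change −0.63, SE 0.27, adjusted p = 0.034, edgeR) and Pdyn was not called (log2 fold change −0.22, SE 0.29, adjusted p = 0.52, edgeR). Receptor levels per length thus changed order, since Oprm1 had 8.66 ± 1.63 CPM per kb in batch 2, above Oprl1 with 6.35 ± 1.34, while in batch 1 it had 1.57 ± 0.206, below Oprl1 with 8.59 ± 1.42.

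The batch difference moved with the length of the gene over all genes. In 5 equal bins of protein-coding genes by genomic span, 3274 genes each, the median log2 value of batch 2 over batch 1 was −0.50, −0.14, 0.03, 0.20 and 0.55 from the shortest to the longest. Oprm1, with 279693 bases, is in the bin of the longest genes, and Oprd1, with 33761, in the next. Pomc, Oprl1 and Penk, with 5692, 5970 and 5289 bases, are in the bin of the shortest. Ipcef1, which shares 96 exon bases with Oprm1 on the opposite strand, was not called (log2 fold change −0.10, SE 0.33, adjusted p = 0.8, edgeR). The part of gene length in the differences of the members was not tested.

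**Figure D4:**
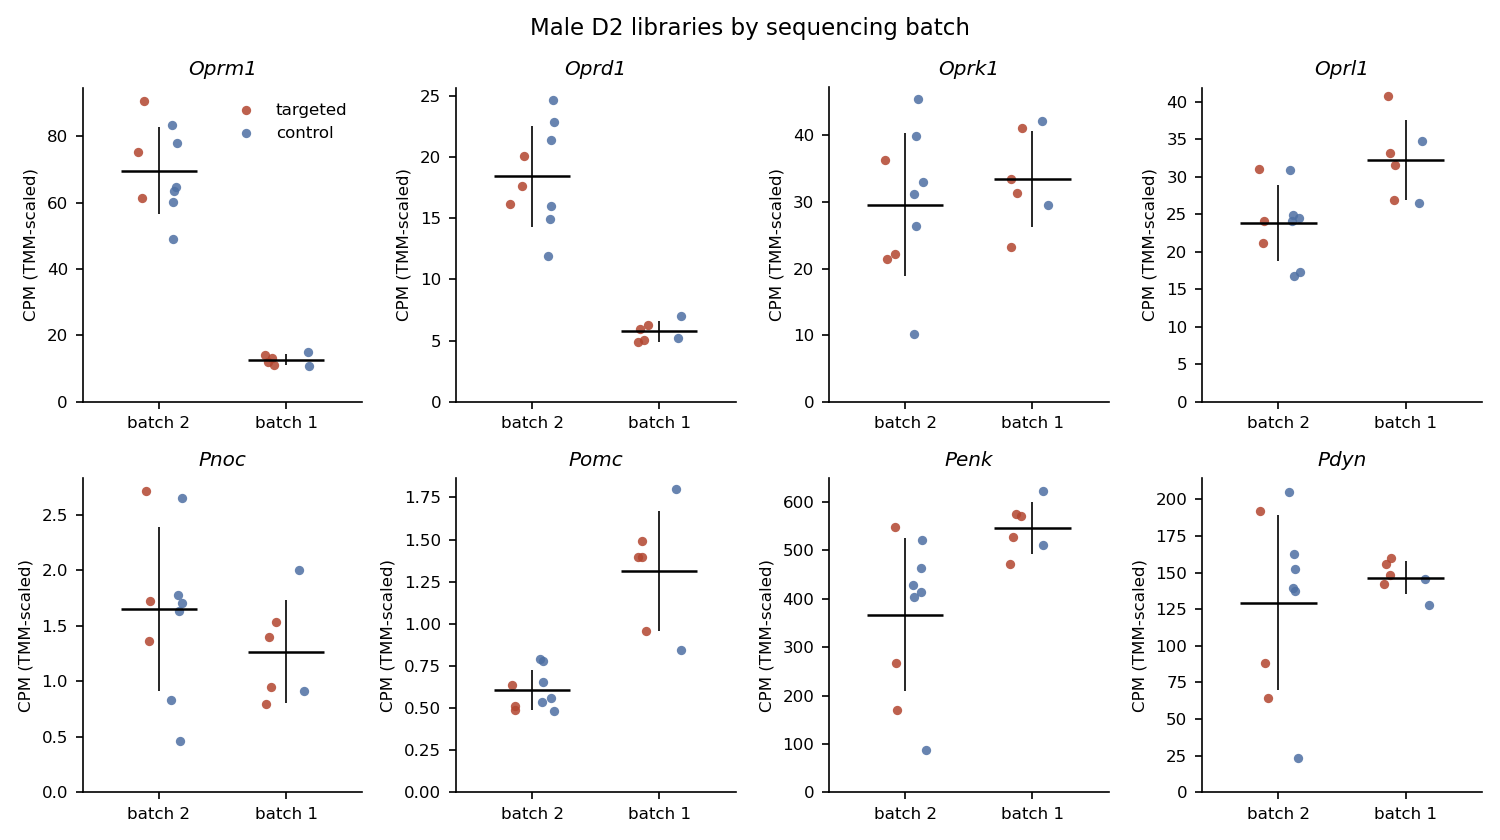
TMM-scaled CPM (vertical axis) of the male D2 libraries in batch 2 and batch 1 for the 6 genes, Penk and Pdyn, coloured by guide, with the mean and 1 SD over both guides. Oprm1 and Oprd1 are higher in every batch 2 library than in any batch 1 library, and Pomc is lower.

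Within batch 1, the receptors differed in which cell type markers they followed from library to library. These correlations are of log2 CPM over 78 libraries, in which each pair of values comes from 1 library and shares its depth, and are given as a description. Oprk1 followed the D1 medium spiny neuron markers (Pearson r = 0.79) and the D2 ones (r = 0.68). Oprd1 followed the striosome markers (r = 0.77) and the D2 markers (r = 0.74). Oprl1 and Pnoc, receptor and ligand precursor, followed each other (r = 0.70) and the septal and pallidal markers (r = 0.75 and r = 0.77). With the GABAergic interneuron markers r was 0.51 for Oprl1 and 0.63 for Pnoc. For Oprm1 the values were 0.15 with the striosome markers and 0.39 with the D1 markers. With the T and B lymphocyte markers r was −0.44 for Oprm1, −0.32 for Oprd1, −0.58 for Oprk1 and −0.37 for Oprl1. With the microglia markers it was −0.38, 0.03, −0.44 and −0.32 in the same order.

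Of the 4 libraries highest in Pnoc, 2 were also among the 3 highest in the septal and pallidal markers. The mean log2 CPM of the septal and pallidal genes had a median of 2.07 over all libraries, and it was 3.6 in 19511 and 3.85 in 16585. These had the highest Oprl1 levels, 83.1 and 76.2 CPM. The other two, 19604 and 19748, were at 2.66 and 2.76, below 16597 at 2.92, which had 2.78 CPM of Pnoc. Library 18419 (female D2 targeted) had the highest septal value of all, 4.0, with 5.37 CPM of Pnoc and 46.2 CPM of Oprl1. None of the 5 septal and pallidal genes was at 0 throughout a group. Whether tissue next to the accumbens is in these libraries was not tested.

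**Figure D5:**
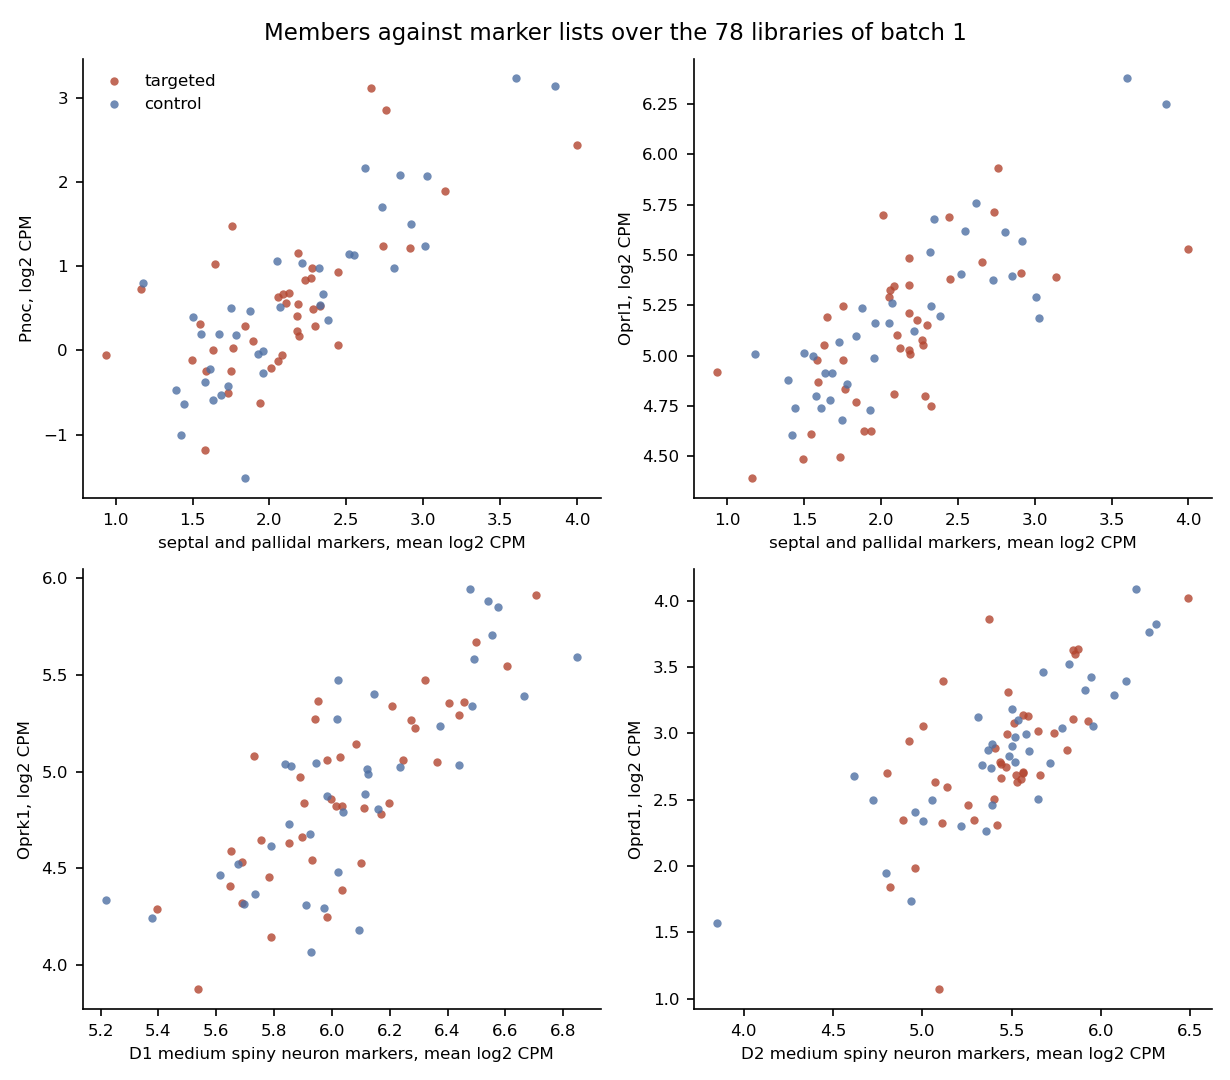
Log2 CPM of Pnoc, Oprl1, Oprk1 and Oprd1 (vertical axes) against the mean log2 CPM of a marker list (horizontal axes), 1 point per batch 1 library, coloured by guide. Points rise from left to right in all 4 panels, with r = 0.77, 0.75, 0.79 and 0.74 in that order.

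For each member the 3 genes of most similar pattern over the 87 libraries were taken from 14469 genes, those averaging 1 CPM or more whose symbols are established names. For Oprm1 they were Kcnip4 (r = 0.95), Purg (r = 0.95) and Lysmd4 (r = 0.94). These values rest on the batches, and in batch 1 alone they were 0.56, 0.47 and 0.43. There the first gene was Ntrk3, a neurotrophin receptor, with r = 0.74. Oprd1 had its nearest patterns in Gsg1l, a subunit of AMPA receptors (r = 0.93), Cacna1i, a T-type calcium channel (r = 0.90), and Fkbp5 (r = 0.89). The same 3 led in batch 1 alone, with 0.90, 0.87 and 0.87. For Oprk1 they were Fam102b (r = 0.88), Rxrg, a retinoid receptor (r = 0.87), and Osbpl8 (r = 0.86).

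Oprl1 was nearest to Impact (r = 0.87), Ddx25 (r = 0.84) and Cmas (r = 0.84). Pnoc was nearest to Plch1 (r = 0.84), Resp18, a protein of peptide secreting cells (r = 0.83), and Adcy8, an adenylyl cyclase (r = 0.81). In batch 1 alone Resp18 came first for Pnoc, with r = 0.90. Pomc gave Flicr (r = 0.88), the pseudogene Rps13-ps2 (r = 0.82), whose reads can belong to its near-identical parent gene, and Ccdc78 (r = 0.82). For Pomc the rank correlations of these 3 were only 0.48, 0.53 and 0.30, whereas for the receptors other than Oprm1 they were 0.801 or higher.

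Genes that make, cut, degrade or pass on opioid signals were followed as lists, in all 52 genes beside the members, of which 49 were tested. None passed in any guide comparison. The smallest p-values there belonged to Rgs4, a brake on G proteins, in female D1 mice (−0.60 log2), Rgs7 in male D1 mice (−0.28), the potassium channel gene Kcnj5 in female D2 mice (0.78), the neuropeptide FF receptor gene Npffr2 in male D2 mice (−0.67), the receptor kinase gene Grk5 in female D1-D2 mice (−0.24) and Kcnj6 in male D1-D2 mice (−1.07), and none passed. List medians of the 49 genes ran from −0.10 to 0.02 over the 6 arms, against medians of −0.03 to 0.03 for all genes.

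Between female and male controls 11 of the 49 were higher in females and 0 lower, with a median log2 value of 0.14 against 0.0016 for all genes, of which 15.3% were called higher and 3359 of 25420 lower. They were the receptor kinase gene Grk2 (0.41), the arrestin gene Arrb1 (0.43), the peptidase genes Ece1 (0.53) and Ace (0.50), the striatal adenylyl cyclase gene Adcy5 (0.65), Rgs4 (0.47) and the G protein gene Gnao1 (0.49). The others were the processing enzyme genes Pam (0.23) and Pcsk2 (0.45), Pdyn (0.51) and the melanocortin receptor gene Mc5r (0.71). This count between the sexes moved with the setting. It was 9 higher and 1 lower with DESeq2 size factors and 10 and 1 in batch 1 alone. With the cortical marker covariate it was 14 and 1, and with no batch term 12 and 2. In the D1 arms 6 were higher and 0 lower, Grk2, Arrb1, Ece1, Gnao1, Adcy5 and Pdyn, which is near the 12.6% of all genes called higher there, and in the D1-D2 arms none passed. Between male D1-D2 and D1 controls 4 were higher and 0 lower, Gnao1, Grk2, Arrb1 and Ece1, all of them genes that also passed between the D1 controls of the 2 sexes, which share the male D1 controls. That count is near the 7.53% of all genes called higher. It was 0 with no batch term and without any 1 of the libraries 17789, 18068, 18069, 19107, 19109 and 19512, and with limma-voom it was 15 higher and 1 lower. In the D1 arms limma-voom likewise gave 15 higher and 1 lower, and the cortical marker covariate 9 higher.

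In batch 2 of the male D2 mice 15 of the 49 were higher and 8 lower, with a median of 0.16 against 0.01 for all genes. Of all genes 32.6% were called higher and 29.7% lower, so the count of higher genes is near the background. The receptor regulators had 6 of 10 higher and 0 lower, among them the receptor kinase gene Grk3 (1.44), Rgs20 (1.03) and Rgs7 (0.78). The effectors had 6 of 9 higher and 0 lower, with the potassium channel genes Kcnj9 (2.71) and Kcnj3 (1.73), Adcy1 (2.26) and the calcium channel gene Cacna1a (1.13). Rgs7, Rgs20 and Grk3, with 433414, 160710 and 105310 bases, are in the bin of the longest genes described above. Kcnj3 and Adcy1, with 162176 and 115018 bases, are in it too, whereas Kcnj9, with 8818, is in the bin next to the shortest. The part of gene length in these values was not tested. Among the lower genes were the melanocortin receptor gene Mc4r (−1.37), the protease gene Ctsl (−0.88) and the G protein gene Gnai3 (−0.81). Agrp, a melanocortin receptor antagonist of the hypothalamus, had the largest value (6.10). Its annotated locus runs through several other genes and shares 114 of its 1013 exon bases with Ctcf on the opposite strand and Gm5914 on its own, so its counts are uncertain.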

How the data were processed

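Ribosomal RNA-depleted, stranded libraries were made from total RNA of dissected tissue. The submitters' processing notes name HISAT2, featureCounts (Subread), Trim Galore and SAMtools, the build mm10 and DESeq2 1.27. The sources used here do not give the annotation or the strand setting of the counting. The authors deposited whole-number counts per gene, not normalized. Of 88 labelled libraries 87 matched a column by title number. A female D2 targeted library had none, and 1 column matched no label and was not used. Identifiers were named and placed with GENCODE M21.

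Counts were fitted in edgeR 4.0.16 (R 4.3.3, quasi-likelihood, robust, TMM, filterByExpr) to 12 groups plus sequencing batch, with Benjamini-Hochberg adjustment across all 25420 genes and a threshold of 0.05. All groups share 1 estimate of spread. The pipeline was tested on simulated data. There were 14 comparisons, and 4 were added after the data were seen (the batch term, the sex difference in D1 and D1-D2 controls, and the difference between these). Alternatives used limma 3.58.1 and DESeq2 1.42.0. Log2 CPM used a prior count of 2. The genes named besides the members were the 3 most similar, every list gene that passed, and otherwise those of smallest p. Members and lists were chosen with earlier results of these data known.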

Additional observations from a re-analysis of the deposited data

Results flagged for a closer look

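In groups of 4 to 10 libraries, 10 of the 66 sets of 1 gene in 1 group held a library far from the others by Dixon's criterion, which flags about 1 in 20 by chance. Library 16585 (female D1 control) was at 76.2 CPM of Oprl1 and 8.81 CPM of Pnoc, against 27.4 to 47.4 and 0.692 to 4.15 CPM in the other 7. Library 19511 (male D1-D2 control) was at 83.1 CPM of Oprl1 and 9.36 CPM of Pnoc, against 24.3 to 49.0 and 0.447 to 3.22 CPM in the other 6. Library 17906 (female D2 control) was at 54.1 CPM of Oprl1 and 4.44 CPM of Pnoc, against 27.8 to 39.1 and 0.638 to 2.31 CPM. In these 3 libraries the receptor and the precursor of its ligand were thus both high.

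Pnoc was also high in library 19719 (female D1-D2 control), at 4.21 CPM against 0.296 to 2.14 CPM. Oprd1 was at 16.9 CPM in library 19755 (female D1 control), against 5.59 to 8.55 CPM. Pomc was at 11.6 CPM in library 16564 (female D1 targeted), against 0.651 to 1.69 CPM, and at 1.80 CPM in library 18386 (male D2 control, batch 1), against 0.483 to 0.844 CPM in a group that is mostly of batch 2.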

How the results depend on the processing

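No paired analysis was possible because the groups share no replicate numbers. Over 1044 alternative values of the 54 guide results of the members, 0 passed the threshold and 67 had the other sign. Without library 16564, Pomc in female D1 mice was −0.13. Among controls, Oprd1 kept its call between female and male D1 controls in all 17 alternatives. Between male D1-D2 and D1 controls it was 0.77 with DESeq2 size factors, 0.87 with no low-count filter, 0.87 with no batch term and 0.84 in batch 1 alone, none called, so that 0 members passed there. Leaving out single libraries gave 0.66 to 1.02, with 0 members passing where the call was lost and 1 elsewhere. With no batch term, Oprd1 between female and male controls was 0.092 and not called, Oprm1 was −0.71 there and 2.07 between male D2 and D1 controls, both called with the sign turned, and 2 members passed between male D2 and D1 controls. With limma-voom 2 members passed between female and male D1 controls, the second being Oprl1. The causes were not tested, apart from the missing batch term. Genes called at all ranged from 0 to 746 in male D1 mice, 0 to 427 in male D2 mice and 0 to 193 in female D1-D2 mice, with the most under limma-voom, no batch term and limma-voom in that order. Between female and male D1 controls they ranged from 2605 to 9399, and between male D1-D2 and D1 controls from 0 to 8904. In both the fewest came with no batch term and the most under limma-voom. Pnoc and Pomc rest on medians of 48 and 42 counts per library, and their intervals also hold the spread from single high libraries.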
